A study of Mus musculus with 6 samples.

Results

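Brain and pancreas microRNAs (miRNAs) were measured in a mouse liver library as a gauge of how far miRNAs of unrelated tissues are seen there. The members were all mouse entries, any arm or gene copy, of 5 brain miRNAs (miR-9, miR-124, miR-128, miR-138 and miR-219a) and 4 pancreas miRNAs (miR-375, miR-216a, miR-216b and miR-217). These came to 21 distinct sequences, 13 of brain and 8 of pancreas miRNAs, of 1963 distinct mouse sequences in all. The members were chosen by name and not by their counts, but with earlier results of these data known.

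The study injected mice with an adeno-associated virus of serotype 9 that expresses Cre recombinase from the Tnnt2 promoter, which belongs to the cardiac troponin T gene and is used to drive expression in heart muscle. The Cre-miR122 group (3 libraries, replicates 1, 2 and 4) received the AAV9-Tnnt2-Cre-miR122 vector, and the Cre group (3 libraries, replicates 10, 11 and 12) received AAV9-Tnnt2-Cre. The labels do not say what the miR122 element does, and the sources used here give no strain, age or dose. The counts analysed come from a single library, Cre-miR122 replicate 2. The 5 other libraries were not analysed here, so no value below compares the groups, and none has a replicate.

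A miRNA is cut from a hairpin precursor, which yields a 5p and a 3p strand, and usually 1 of these is retained by an Argonaute protein. Bases 2 to 8 of the retained strand, the seed, pair with target mRNAs. miR-9 acts in neural progenitors and neurons, miR-124 is a defining miRNA of neurons, miR-128 is enriched in neurons, miR-138 controls dendritic spine size in rat neurons, and miR-219a promotes oligodendrocyte maturation and myelination. In the pancreas, miR-375 is abundant in the endocrine islets, where it restrains insulin secretion in the mouse, while miR-216a, miR-216b and miR-217 are known from the exocrine acinar cells. None of them is known as a main miRNA of hepatocytes.

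The strands that are usually the retained ones are shown for the miRNAs on which the results turn, because the seed identifies each and its miRNA family, and because the 3′ ends are compared further on. The sequences are RefSeq's, on the GRCm38.p6 build, 5′ to 3′, with the seed in capitals. Mature entries were found there for 17 of the 21 members, and all 17 were identical to the deposited entry.
mmu-miR-128-3p: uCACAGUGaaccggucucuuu
mmu-miR-9-5p: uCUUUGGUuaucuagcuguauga
mmu-miR-138-5p: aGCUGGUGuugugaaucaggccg
mmu-miR-219a-5p: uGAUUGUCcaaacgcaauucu
mmu-miR-216a-5p: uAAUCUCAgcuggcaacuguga
mmu-miR-216b-5p: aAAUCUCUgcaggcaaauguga
mmu-miR-217-5p: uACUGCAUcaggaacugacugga
mmu-miR-124-3p and mmu-miR-375-3p are named here without a sequence. No 2 of these 9 strands share a seed. The miR-216a-5p and miR-216b-5p strands are identical at 18 of 22 bases, and their seeds differ in the last base. The miR-128-3p seed is carried by 1 other mouse entry, miR-6539, which had 3 reads.

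The library held 6661069 reads on distinct mouse sequences. The liver label was checked with 6 hepatocyte miRNAs, of which 13 of 14 sequences had reads, and which together took 62.6% of mouse reads. Of that list's reads, 92.4% were miR-148a-3p, and the other sequences took 4.73% of mouse reads. Striated muscle miRNAs, which hepatocytes are not known for, took 15.8% in this library, more than the hepatocyte list without miR-148a-3p, and 93.3% of their reads were miR-1a-3p. By mouse entries, the hepatocyte-defining miR-122-5p had 236027 reads, against 980271 for the muscle miRNA miR-1a-3p. With the end forms explained below, miR-122-5p had 685102 reads and miR-1a-3p had 1065891. The muscle miRNA was higher by either count, but the gap was smaller with end forms. Whether the miR122 element of the vector changed the miR-122-5p level was not tested. Levels below are RPM, the reads of a sequence per 1000000 mouse reads, with exact Clopper-Pearson 95% intervals in parentheses. A count of 0 was given a floor of 3 reads, or 0.450 RPM. The exact 95% interval of a 0 count reaches higher, to 0.554 RPM. The intervals and the floor cover counting error only, since PCR copies were counted as separate reads. Some reads of a mouse strand have another first or last base and were counted for same-named entries of other species, termed end forms here, and values with end forms add them to the members and to the total of 8032202 reads.

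The 21 members together held 1120 reads, or 168 RPM (158 to 178). In RNA of whole tissue, few cells of a type and little RNA per cell cannot be told apart. The brain members held 1074 reads or 161 RPM (152 to 171), and the pancreas members held 46 reads or 6.91 RPM (5.06 to 9.21). Each sum came mainly from 1 sequence, miR-128-3p with 93.9% of the brain reads and miR-375-3p with 84.8% of the pancreas reads. Without these, 66 brain reads and 7 pancreas reads remained. Which cells gave the miR-128-3p reads was not tested, so the brain sum need not measure RNA of brain-type cells. Brain reads outnumbered pancreas reads 23.3 to 1 (17.4 to 32.1). With end forms, the brain members held 3801 reads or 473 RPM (458 to 489) and the pancreas members 56 reads or 6.97 RPM (5.27 to 9.05).

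Most members were barely seen. Of the 21 sequences, 12 (57.1%) had at least 1 read, against 27.8% of all 1963 mouse sequences. At least 10 reads were counted for 3 of 21 (14.3%), against 15.4% of all mouse sequences, so the share above this level was near that of the whole list. Among sequences with reads, the median was 2 reads over the 12 members and 18 reads over all 546 mouse sequences. Of the 12 members with reads, 8 had between 1 and 3 reads, as did 185 of the 546.

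**Figure D1:**
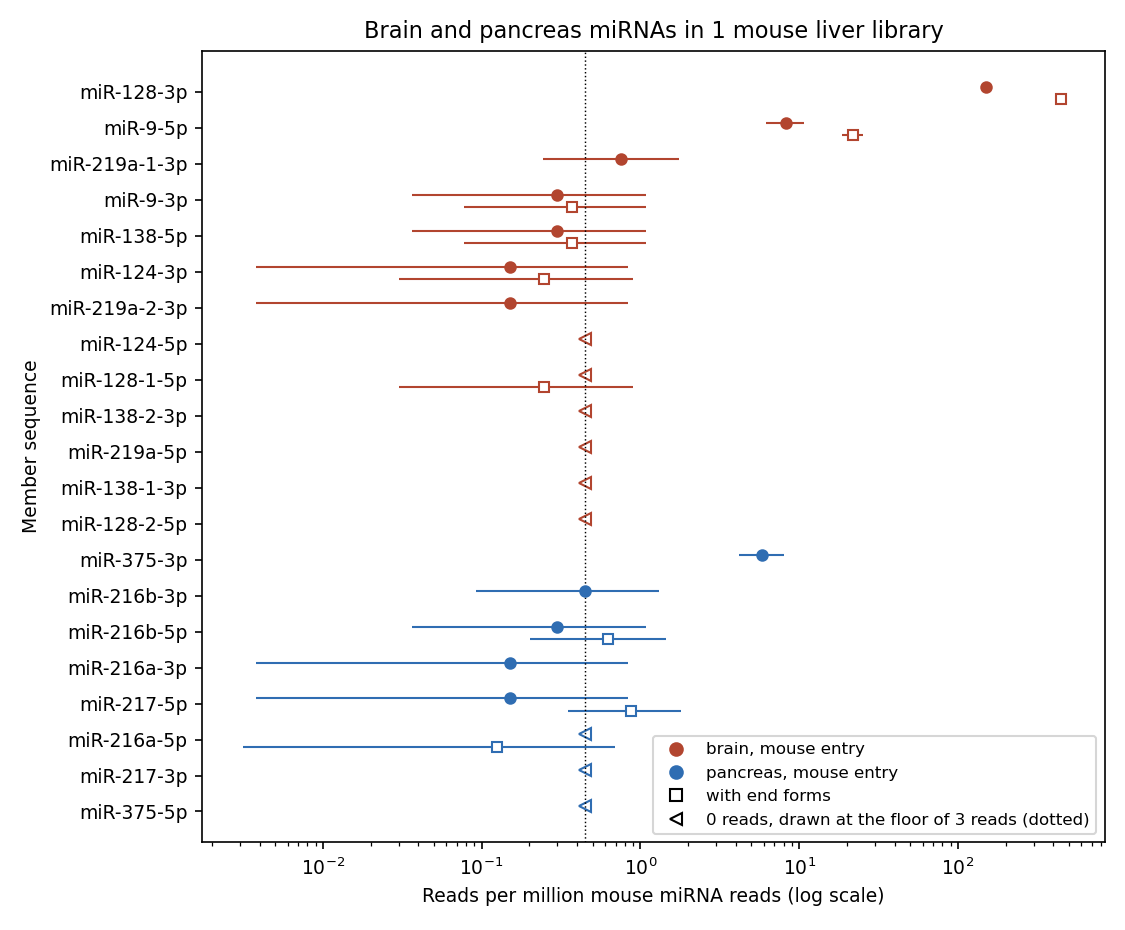
RPM (log axis) of each member sequence in the liver library, with exact 95% intervals as bars. Filled circles are mouse entries, open squares add end forms, and open triangles mark 0 reads at the floor of 0.450 RPM. miR-128-3p, miR-9-5p and miR-375-3p stand to the right of all other members.

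Of the members, miR-128-3p of the brain set was the highest. It had 1008 reads, or 151 RPM (142 to 161), and ranked 72 among the 546 mouse sequences with reads. By mouse entries, miR-181a-5p with 1131 reads and miR-126a-5p with 1152 stood next above it. Next below it stood miR-133a-3p with 915 and miR-203-3p with 899. This order changed with end forms, where miR-133a-3p had 11609 reads and stood above miR-128-3p. By that count miR-128-3p had 3610 reads, or 449.4 RPM (435 to 464), and ranked 56. The hepatocyte miRNA miR-122-5p exceeded it 234-fold (220 to 249) by mouse entries and 190-fold (183.7 to 196.1) with end forms. Both ratios rest on the miR-122-5p level of a Cre-miR122 library, where an effect of the vector was not tested. The opposite strands, miR-128-1-5p and miR-128-2-5p, had 0 reads each, and miR-128-3p stood 336-fold above the floor of 3 reads given to them. This is not a lower limit of the ratio, because the interval of a 0 count reaches above the floor. With end forms miR-128-1-5p had 2 reads and miR-128-2-5p still had 0.

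miR-128-3p is made from 2 genes. Mir128-1 (ENSMUSG00000065520.2) is an intronic gene within R3hdm1, at chr1:128202361-128202430 on the plus strand. Mir128-2 (ENSMUSG00000065441.2) is intronic to Arpp21, at chr9:112118636-112118711 on the minus strand. These positions are those of GENCODE release M21 on GRCm38. Both hairpins hold the same 21 bases and then diverge, as the RefSeq hairpin sequences show, with the bases after position 21 in capitals.
Mir128-1: ucacagugaaccggucucuuuUUCAG
Mir128-2: ucacagugaaccggucucuuuCCCUA
A form longer than the mouse entry therefore matches 1 gene only. The deposited table records the 5 forms below, printed because their last bases separate the genes, with bases after position 21 in capitals.
20 nt, both hairpins: ucacagugaaccggucucuu
21 nt, both hairpins: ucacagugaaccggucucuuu
22 nt, Mir128-1: ucacagugaaccggucucuuuU
22 nt, Mir128-2: ucacagugaaccggucucuuuC
23 nt, Mir128-1: ucacagugaaccggucucuuuUU

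The 21-nt mouse entry was not the most frequent form of miR-128-3p. The 22-nt form ending in U had 1374 reads, 38.1% of the 3610 (36.5 to 39.7), and the mouse entry had 1008, or 27.9% (26.5 to 29.4). The 23-nt form had 675 reads, the 20-nt form had 104 and the 22-nt form ending in C made up 12.4% (11.4 to 13.6). Forms that extend past the mouse entry thus made up 69.2% of the arm (67.7 to 70.7). Of these 2498 extended reads, 2049 matched Mir128-1 alone and the rest matched Mir128-2 alone, while the other 1112 reads of the arm matched both hairpins. At 22 nt, where the table has a form for each gene, the U form outnumbered the C form 3.06 to 1 (2.75 to 3.41). At 23 nt the table has a form for Mir128-1 and none for Mir128-2. A U added to the 3′ end of the 21-nt strand after processing gives the same sequence as the Mir128-1 form, and the counts cannot tell these apart.

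**Figure D2:**
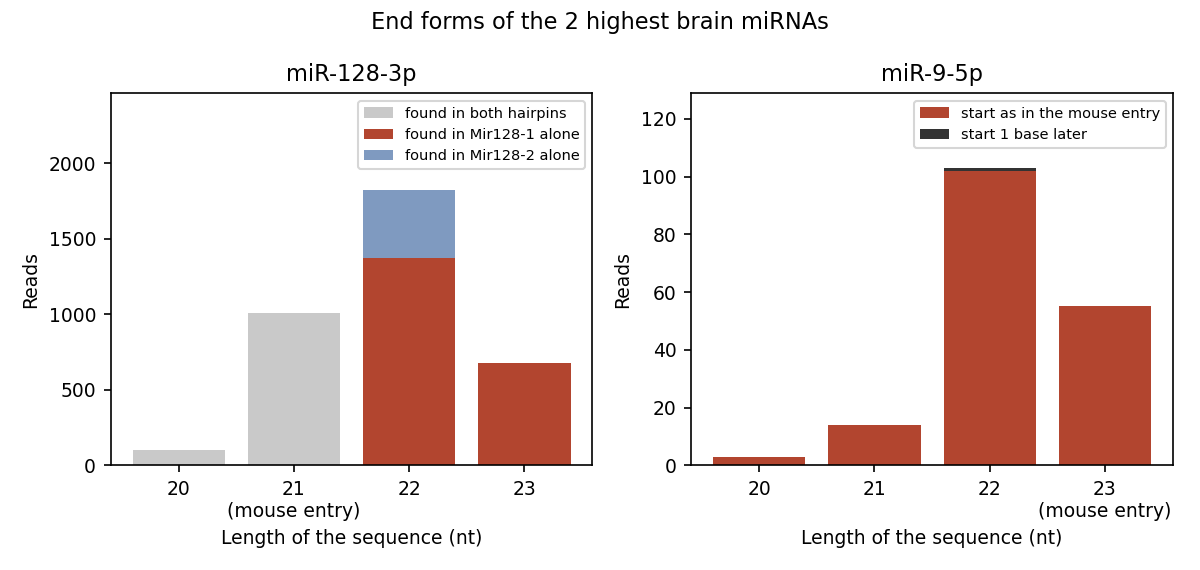
Reads of each length of miR-128-3p (left) and miR-9-5p (right), with lengths in nt on the horizontal axis and reads on the vertical axis. Colours show which Mir128 hairpin holds the form (left) and where the form starts (right). The mouse entry is 21 nt for miR-128-3p and 23 nt for miR-9-5p, and in both the 22-nt forms were highest.

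miR-9-5p was the only other brain member with at least 10 reads. It had 55 reads, or 8.26 RPM (6.22 to 10.7), and 191 mouse sequences had more reads, while miR-369-5p had the same number. By mouse entries, the sequences beside it were miR-132-3p with 58 reads, miR-504-5p with 54 and miR-1247-3p with 53. Reads of miR-128-3p outnumbered those of miR-9-5p 18.3 to 1 (13.97 to 24.5), and 20.6 to 1 (17.7 to 24.1) with end forms. With end forms miR-9-5p had 175 reads, or 21.8 RPM (18.7 to 25.3). The 22-nt form that lacks the last base had 102 reads and the 23-nt mouse entry had 55, followed by 14 reads at 21 nt and 3 at 20 nt. In miR-9-5p, 68.0% of reads (60.5 to 74.8) ended before the mouse entry, and 0 of 175 ended after it although the table has 1 longer entry. Among the ends that have an entry, the shift was opposite to that of miR-128-3p, where 2.88% ended earlier (2.36 to 3.48). Entries with the mouse start and a later end numbered 3 for miR-128-3p and 1 for miR-9-5p. Those with an earlier end numbered 1 and 3. The counts cannot tell a difference in ends from this difference in entries.

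A single read of miR-9-5p started 1 base later than the mouse entry. Over all members, this was 1 of 3857 reads with end forms, so the seeds of the other reads were those of the mouse entries. The table holds 57 end-form entries of the members, of which 15 had reads, and 19 of the 57 have another start. Other starts are seen only where such an entry exists, and for miR-128-3p there is none. The opposite strand, miR-9-3p, had 2 reads, or 3 with end forms, so miR-9-5p exceeded it 27.5-fold (7.26 to 233). All 3 Mir9 genes give both strands, and their reads cannot be separated. Mir9-1 lies on chromosome 3 in an intron of Gm3764, Mir9-2 on chromosome 13 in an exon of C130071C03Rik, and Mir9-3 on chromosome 7 in an intron of Mir9-3hg, all hosts being annotated long noncoding RNAs.

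The remaining brain miRNAs were at or near the floor. miR-124-3p, the neuronal strand of miR-124, had 1 read, or 2 with end forms, and miR-124-5p had 0. The 3 Mir124 genes lie in exons of long noncoding RNAs on chromosomes 14, 3 and 2, and all hold the 3p strand. The strand miR-138-5p had 2 reads, or 3 with end forms, while miR-138-1-3p and miR-138-2-3p had 0 each. Its genes are Mir138-1 at chr9:122682876-122682974, in an exon of the pseudogene Gm47135, and Mir138-2 at chr8:94324311-94324381, within an exon of C78859, a long noncoding RNA. The oligodendrocyte strand miR-219a-5p had 0 reads and none as end forms, although it can come from both Mir219a genes and the table has 4 end-form entries for it. Its opposite strands had reads instead, 5 for miR-219a-1-3p and 1 for miR-219a-2-3p. The interval of 0.244 to 1.75 RPM for miR-219a-1-3p includes levels below the floor of 0.450 RPM set for miR-219a-5p. The order of the strands was therefore not resolved at this depth. Mir219a-1 overlaps an exon of Gm26940, a long noncoding RNA gene, at chr17:34024983-34025092 on the minus strand, while Mir219a-2 overlaps no other gene at chr2:29845631-29845727.

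Among the pancreas miRNAs, the islet miRNA miR-375-3p was the highest. It had 39 reads, or 5.85 RPM (4.16 to 8.0), at rank 220, shared with miR-204-5p. By mouse entries, the sequences beside it were miR-674-3p with 40 reads, and miR-339-5p and miR-497a-5p with 38 each. Its opposite strand miR-375-5p had 0 reads, and miR-375-3p stood 13-fold above the floor of 3 reads, which is likewise not a lower limit of the ratio. No end form of miR-375-3p had reads, but the table has no entry with its start and another end, so its value could not rise in the way that those of miR-128-3p and miR-9-5p did. Reads of miR-9-5p were 1.41 times those of miR-375-3p by mouse entries (0.919 to 2.18), an interval that includes equal counts. Mir375 (ENSMUSG00000065616.3) stands apart from other annotated genes, at chr1:74900658-74900721 on the minus strand.

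The acinar cluster gave very few reads. Mir216b, Mir216a and Mir217 span 17645 bp at chr11:28746191-28763835 on the plus strand, with Mir216a and Mir217 in an intron of the long noncoding RNA Gm12082 and Mir216b outside other genes. By mouse entries, miR-216b-3p had 3 reads, miR-216b-5p had 2, miR-216a-3p and miR-217-5p had 1 each, and miR-216a-5p and miR-217-3p had 0. With end forms miR-217-5p had 7 reads, of which 6 ended 1 base early, miR-216b-5p had 5 and miR-216a-5p had 1. The 6 sequences of the cluster thus had at most 7 reads each under either count. The 2 arms of miR-216b could not be ordered, with a 3p to 5p ratio of 1.50 (0.172 to 18.0) by mouse entries and 0.600 (0.0932 to 3.08) with end forms.

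**Figure D3:**
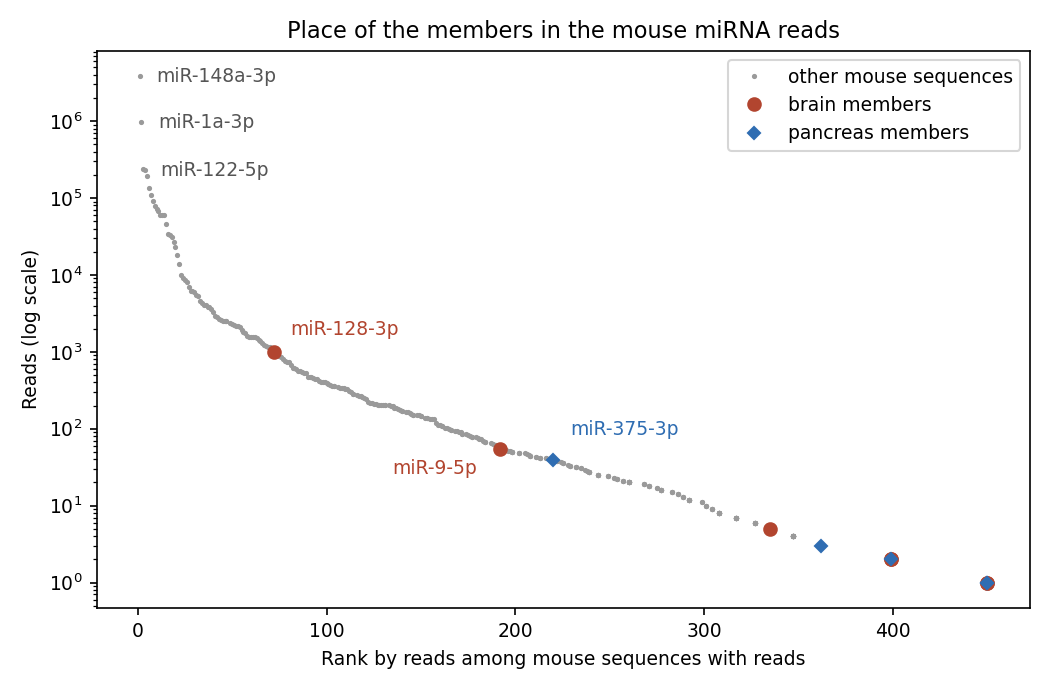
Reads (log axis) of the 546 mouse sequences with reads against their rank. Brain members (circles) and pancreas members (diamonds) are marked, with miR-128-3p at rank 72, miR-9-5p between it and miR-375-3p, and miR-375-3p at 220, and the remaining members with reads fall at ranks 335 to 450.

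Other lists of miRNAs put these levels on a scale. A further 15 miRNAs known from brain, several of which are also made elsewhere, held 1639 reads or 246 RPM (234 to 258), with reads for 13 of 31 sequences. They were led by miR-7a-5p with 665 reads, which is also an islet miRNA, miR-218-5p with 617, miR-129-5p with 202 and miR-132-3p with 58. The top of this list was thus of the same order as miR-128-3p, and well above miR-124-3p and miR-138-5p. With end forms the list held 5811 reads, against 3801 for the brain members. By that count miR-7a-5p had 4558 reads and miR-128-3p had 3610. Embryonic stem cell miRNAs held 7 reads over 26 sequences, led by miR-292a-5p and miR-302b-3p with 2 each, a sum equal to the 7 pancreas reads other than miR-375-3p. Testis and ciliated epithelium miRNAs held 103 reads, of which miR-34c-5p had 84. Those of eye and choroid plexus held 89, led by miR-184-3p with 44 and miR-204-5p with 39, and those of stratified epithelium held 902, of which miR-203-3p had 899.

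Summed reads of the erythroid and muscle lists were higher than those of the brain and pancreas members. The erythroid list held 2897 reads or 435 RPM (419.2 to 451.04), led by miR-486a-5p with 2549 reads and the red cell miRNA miR-451a with 305. With end forms the erythroid list held 5898 reads, and miR-451a had 2635. The striated muscle list held 1050354 reads, which is 15.8% of mouse reads, with reads for 8 of 15 sequences. Its highest sequence, the heart and skeletal muscle miRNA miR-1a-3p, had 980271 reads and exceeded miR-128-3p 972-fold (914 to 1035) and miR-375-3p 25135-fold (18387 to 35347). With end forms the first of these ratios was 295.3 to 1 (285.8 to 305.2). Whether the Cre libraries show the same levels was not tested.

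**Figure D4:**
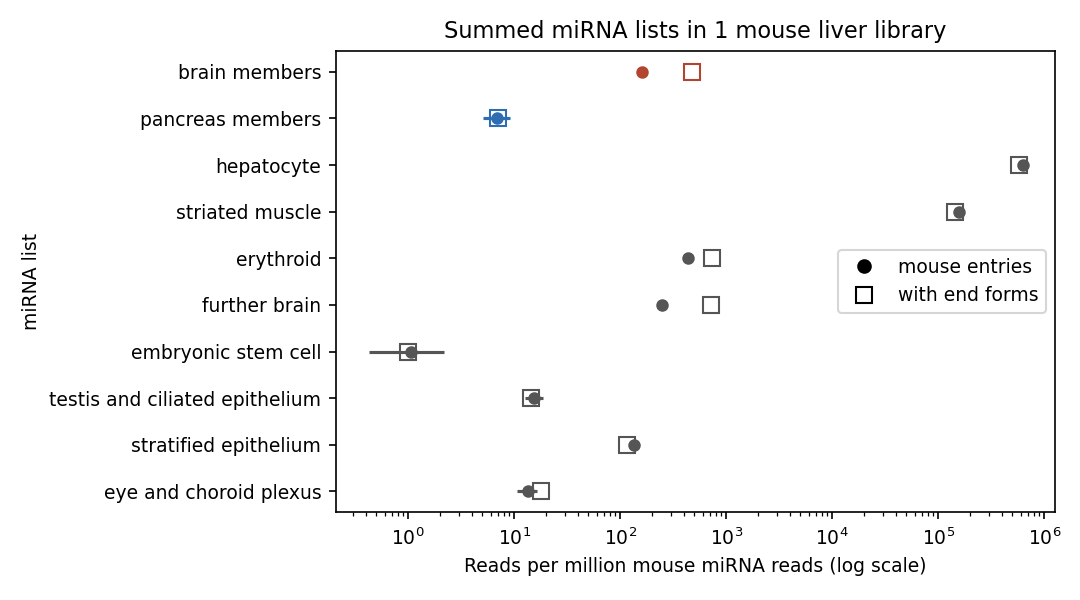
Summed level of each miRNA list in RPM (log axis), with filled circles for mouse entries, bars for exact 95% intervals and open squares with end forms. Brain members lie at 161, pancreas members at 6.91 and embryonic stem cell miRNAs at 1.05, against 157686 for striated muscle and 626207 for hepatocyte miRNAs.

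The relatives with another letter were not members. Counts of miR-9b, miR-216c, miR-219b and miR-219c were 0 for every sequence, and so were those of miR-124b, which was added after its values were seen. No same-named sequence of another species with reads lay outside the mouse hairpins, and no other entry with reads differed from a member by 1 base. The part of an arm's reads held by the mouse entry, 27.9% for miR-128-3p and 31.4% (24.6 to 38.9) for miR-9-5p, can be set beside a median of 70.1% over mouse arms with at least 100 reads, end forms included. The part was lower than that of miR-128-3p in 50 of these arms and not lower in the other 156, itself among them.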

How the data were processed

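Mouse liver RNA was converted to small RNA libraries by adapter ligation and PCR, and sequenced as single reads, per the labels' protocols. The deposited table holds raw counts for 48885 mature miRNA entries of many species in 1 cleaned library, per the file headers, and its column name matches Cre-miR122 replicate 2 alone. The sources used here name neither the counting program nor the release of the miRNA list, and mm10 is named in the submitters' processing notes. Ligation favours some sequences, so counts of different miRNAs are not molecule numbers.

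Entries of identical sequence had equal counts, and each of the 30721 distinct sequences was used once (8163802 reads). The 22-nt form of miR-128-3p ending in U had 1374 reads, more than the 1008 of the 21-nt form nested in it, so a read was not counted for every entry it contains. End forms are entries of other species found exactly in a mouse hairpin of GENCODE release M21 (GRCm38, the assembly of mm10; 2202 hairpins) that overlap a mouse strand by at least 15 nt and more than any other. Intervals at the 95% level are exact, by Clopper-Pearson for shares and by the binomial split of the summed reads for ratios. With 1 library no test between groups was possible. The intervals were tried on counts simulated as independent reads, and the end-form search on pieces cut from the same hairpins. These simulations held no PCR copies and no ligation bias, so they do not bear on either. Every member sequence is reported, with up to 4 of the highest of each list and the 2 nearest sequences on each side of the highest brain and pancreas member. Those beside miR-9-5p were added after its values were seen. The members and lists were chosen with earlier results of these data known. Alternatives were other totals, end forms, a minimum of 10 reads and identical entries counted repeatedly. The tools were SciPy 1.17.1, NumPy 2.4.6, matplotlib 3.10.9, pandas 2.3.3 and Python 3.11.15.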

Additional observations from a re-analysis of the deposited data

Results flagged for a closer look

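Reads counted for other species' entries lay outside the main measurement and exceeded the floor of 3 reads for 3 members. They came to 2602 reads for miR-128-3p, 120 for miR-9-5p and 6 for miR-217-5p. All lie exactly in the mouse hairpins of these miRNAs. For miR-217-5p they raise the value to 7 reads, against 1 by the mouse entry.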

How the results depend on the processing

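The brain share of 161 RPM was 131.6 with the total over all distinct sequences, 473 with end forms located in mouse hairpins, 466 with end forms by name and that larger total, and 382.9 when miR-148a-3p was left out of the total. The pancreas share of 6.91 was 16.4 without miR-148a-3p and within its interval under the other alternatives that kept miR-375-3p. The brain to pancreas ratio of 23.3 was 67.9 under both ways of adding end forms. This rise depends on the entries, since miR-375-3p has none with its start and another end, while miR-128-3p has 4 end-form entries. Leaving out miR-128-3p and miR-375-3p, chosen after seeing the data, gave 9.91 RPM for brain, 1.05 for pancreas and a ratio of 9.43. A minimum of 10 reads left 3 of the 12 member sequences with reads. Of the 12 single shares, 3 moved beyond their interval with end forms (miR-128-3p, miR-9-5p and miR-217-5p, the highest rise being 5.81-fold), 4 rose beyond it without miR-148a-3p, 1 fell below it with the total over all sequences, and 9 became 0 under the minimum of 10 reads. Each of these changes is set by which reads are added or removed. Counting identical entries repeatedly moved none of the results. Alternatives that leave out a library could not be run with 1 library, and no paired analysis was possible because a single library was analysed. Depth limits every member other than miR-128-3p, miR-9-5p and miR-375-3p, since their counts of 0 to 5 by mouse entries cannot be ordered.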
